A study of Mus musculus with 4 samples.

Results

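The genes described here are targets of the tumour suppressor p53 and members of the BCL2 family that control cell death, read in mouse liver. Members were chosen by name from a list of 10 genes, Bbc3, Bax, Bcl2l11, Pmaip1, Bcl2l1, Mcl1, Cdkn1a, Mdm2, Ccng1 and Aen. A member was read from a probe set whose platform annotation gives a single gene symbol, and where a gene had several such sets, from the brightest set on average. By that rule 9 of the 10 genes had a value, among 22180 genes in all, and Bax was not analysed here. Levels are log2 expression values made with RMA, and a difference of 1 on this scale is a 2-fold ratio.

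Each of the 4 arrays held RNA combined from livers of C57BL/6 mice more than 2 months old. The pools were 7 wild-type (WT) mice given a 70% fructose diet over 3 weeks, 7 WT mice on regular chow, 6 Chrebp-null mice given the fructose diet over 2 weeks, and 4 WT mice given it over 2 weeks. ChREBP, encoded by Mlxipl, switches on genes of sugar and fat metabolism when sugars are plentiful. Every pool mixed the sexes, in proportions the labels do not give, and the series design pairs the 3-week WT pool with chow and the Chrebp-null pool with the 2-week WT pool. With 1 array per group there is no spread between replicates, so no difference below was tested and each compares 2 arrays of pooled mice.

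p53 is kept low in resting cells by MDM2, which marks it for destruction, and accumulates when DNA is damaged or growth signals conflict. It then switches on Cdkn1a, whose product p21 blocks cyclin-dependent kinases and halts the cell cycle, and Mdm2 itself, which closes a feedback loop. It can also switch on BH3-only proteins such as PUMA, the product of Bbc3, and NOXA, the product of Pmaip1. BH3-only proteins bind the survival proteins BCL-XL and MCL1 and release BAX and BAK, which open the outer mitochondrial membrane. Other factors use the same genes: the stress factor CHOP and the FOXO factors are known activators of BIM, the product of Bcl2l11, and of PUMA.

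Sequence around the annotated starts is shown for Cdkn1a, Ccng1, Mdm2 and Aen, the 4 members that read higher in every fructose pool than on chow. That pattern rests on 1 chow array and its share over all genes was not counted. No link between levels and matches is drawn from this choice. Windows run from 250 bases before to 50 bases after a RefSeq start (GRCm38.p6), printed 5′ to 3′ on the gene's strand, with capitals marking exact matches to the p53 decamer consensus and, for Cdkn1a and Ccng1, a whole adjoining pair of decamers with 1 mismatch. The first Cdkn1a window is chr17:29090729-29091028 on the plus strand, Ccng1 is chr11:40755237-40755536 on the minus strand, Mdm2 is chr10:117710709-117711008 on the minus strand and the first Aen window is chr7:78895677-78895976 on the plus strand.
Cdkn1a: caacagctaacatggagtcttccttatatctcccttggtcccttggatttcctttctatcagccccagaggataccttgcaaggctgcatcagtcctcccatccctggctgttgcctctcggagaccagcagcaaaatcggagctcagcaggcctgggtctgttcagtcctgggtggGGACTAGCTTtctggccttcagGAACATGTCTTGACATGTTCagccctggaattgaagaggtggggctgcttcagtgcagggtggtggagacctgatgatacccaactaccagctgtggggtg
Ccng1: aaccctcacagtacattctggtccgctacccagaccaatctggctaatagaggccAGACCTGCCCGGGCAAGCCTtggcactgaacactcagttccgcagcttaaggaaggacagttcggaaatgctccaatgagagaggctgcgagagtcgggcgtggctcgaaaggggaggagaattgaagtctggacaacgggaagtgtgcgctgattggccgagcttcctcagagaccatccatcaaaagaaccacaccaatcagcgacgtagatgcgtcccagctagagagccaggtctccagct
Mdm2: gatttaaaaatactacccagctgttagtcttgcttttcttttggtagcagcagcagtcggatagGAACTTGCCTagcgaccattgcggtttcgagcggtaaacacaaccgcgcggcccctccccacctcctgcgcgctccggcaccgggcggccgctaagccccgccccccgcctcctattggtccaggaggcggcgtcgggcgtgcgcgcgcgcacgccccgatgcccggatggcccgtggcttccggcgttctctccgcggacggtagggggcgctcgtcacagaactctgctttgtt
Aen: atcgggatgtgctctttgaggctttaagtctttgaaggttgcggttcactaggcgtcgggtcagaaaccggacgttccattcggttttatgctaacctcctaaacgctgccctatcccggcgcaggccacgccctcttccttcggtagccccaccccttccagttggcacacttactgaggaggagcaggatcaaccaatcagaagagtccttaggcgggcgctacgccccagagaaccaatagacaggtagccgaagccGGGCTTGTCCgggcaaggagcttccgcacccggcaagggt

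The decamer is its own reverse complement, so 1 search covers both strands. An exact decamer was present in 8.36% of all 32851 windows, and in 6 of the 16 windows of the members searched, which belong to Aen (both of its overlapping windows, which share the match), Bax, Ccng1, Cdkn1a and Mdm2. An adjoining pair with at most 1 mismatch, the C and G of both cores kept, was present in 22 of the 32851 windows, a share of 0.067%, and 2 of those 22 were the first Cdkn1a window and the Ccng1 window. The Cdkn1a pair was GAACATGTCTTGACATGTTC, 51 bases before the upstream start, and the Ccng1 pair was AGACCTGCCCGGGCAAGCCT, 195 bases before its start. No window of Bbc3, Bcl2l11, Bcl2l1 or Mcl1 held an exact decamer, nor did the second Cdkn1a window. A looser pair, with 3 mismatches, lay in the first Bbc3 window, 97 bases before its start, and in both Aen windows. Pairs with up to 3 mismatches were present in 1.38% of all windows. No promoter of Pmaip1 was used here. The E-box core CACGTG, the same on both strands, was in 3 of the 16 windows (Aen, Bax and Bbc3) and in 7.15% of all windows. These matches describe letters in short windows, say nothing of binding, and do not cover sites further upstream or in introns.

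Of the arrays as a whole, medians lay between 3.11 and 3.17 and Pearson's r between pairs of arrays lay between 0.974 and 0.982. Mlxipl, the targeted gene, read 8.09 in the Chrebp-null pool, against 9.83 in the 2-week WT pool, lower in the direction of its label, though no label says where its probes lie relative to the null allele. A gene was assessed in a comparison where the higher of both arrays was at or above a floor of 3.52, the median of the genes' mean levels, and was counted as past 2-fold from a log2 difference of 1 either way. Of the 9 members, 7 reached the floor on at least 1 array, and Bbc3 and Pmaip1 stayed below it on every array. Between the WT pools on fructose for 3 and 2 weeks, which are not replicates, 1.27% of 11648 genes were past 2-fold higher at 3 weeks and 1.1% past 2-fold lower (2.37% in all). Cdkn1a was the 1 member past 2-fold there, lower at 3 weeks.

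Cdkn1a, the p21 gene, had the widest range of the members. It read 5.63 in the 3-week WT fructose pool, against 4.53 in the chow pool (probe set 17335467). It read 7.67 in the Chrebp-null pool, against 6.74 in the WT pool after 2 weeks of fructose. All 3 fructose pools were thus above chow, the 2-week WT pool was above the 3-week WT pool, and the null pool was highest. This order, with a range of at least 1 and the null pool at or above the floor, was read in 57 genes, Cdkn1a included. At or above the floor on at least 1 array were 12194 genes.

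The difference of Cdkn1a was 1.10 for 3 weeks of fructose over chow, a ratio of 2.15. It was 0.92 for Chrebp-null over WT at 2 weeks, a ratio of 1.90, just under 2-fold. The 2-week WT pool over chow gave 2.22, a ratio of 4.66, and the null pool over the 3-week WT pool gave 2.04, a ratio of 4.11. The last 2 differences reuse the arrays of the first 2, so the 4 are not independent. The WT pools themselves differed by -1.12 for 3 weeks over 2 weeks, a distance larger than that between the null and WT pools at 2 weeks.

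The range of Cdkn1a over the 4 arrays was 3.14, where the median range of the 12194 genes at or above the floor was 0.47 and the 95 percentile was 1.20. A range at least as wide was found in 34 of those genes, Cdkn1a included, a share of 0.279%. Cdkn1a was also 1 of 6 genes past 2-fold over chow, and at or above the floor, in each of the 3 fructose pools, all set against the same chow array. The others, singled out after their values were seen, were Apoa4, an apolipoprotein gene, Fgf21, a liver hormone gene, the small nucleolar RNAs Snord73a and Snord73b, and 2010003K11Rik, of which Fgf21 and Snord73a lay below the floor on chow.

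**Figure D1:**
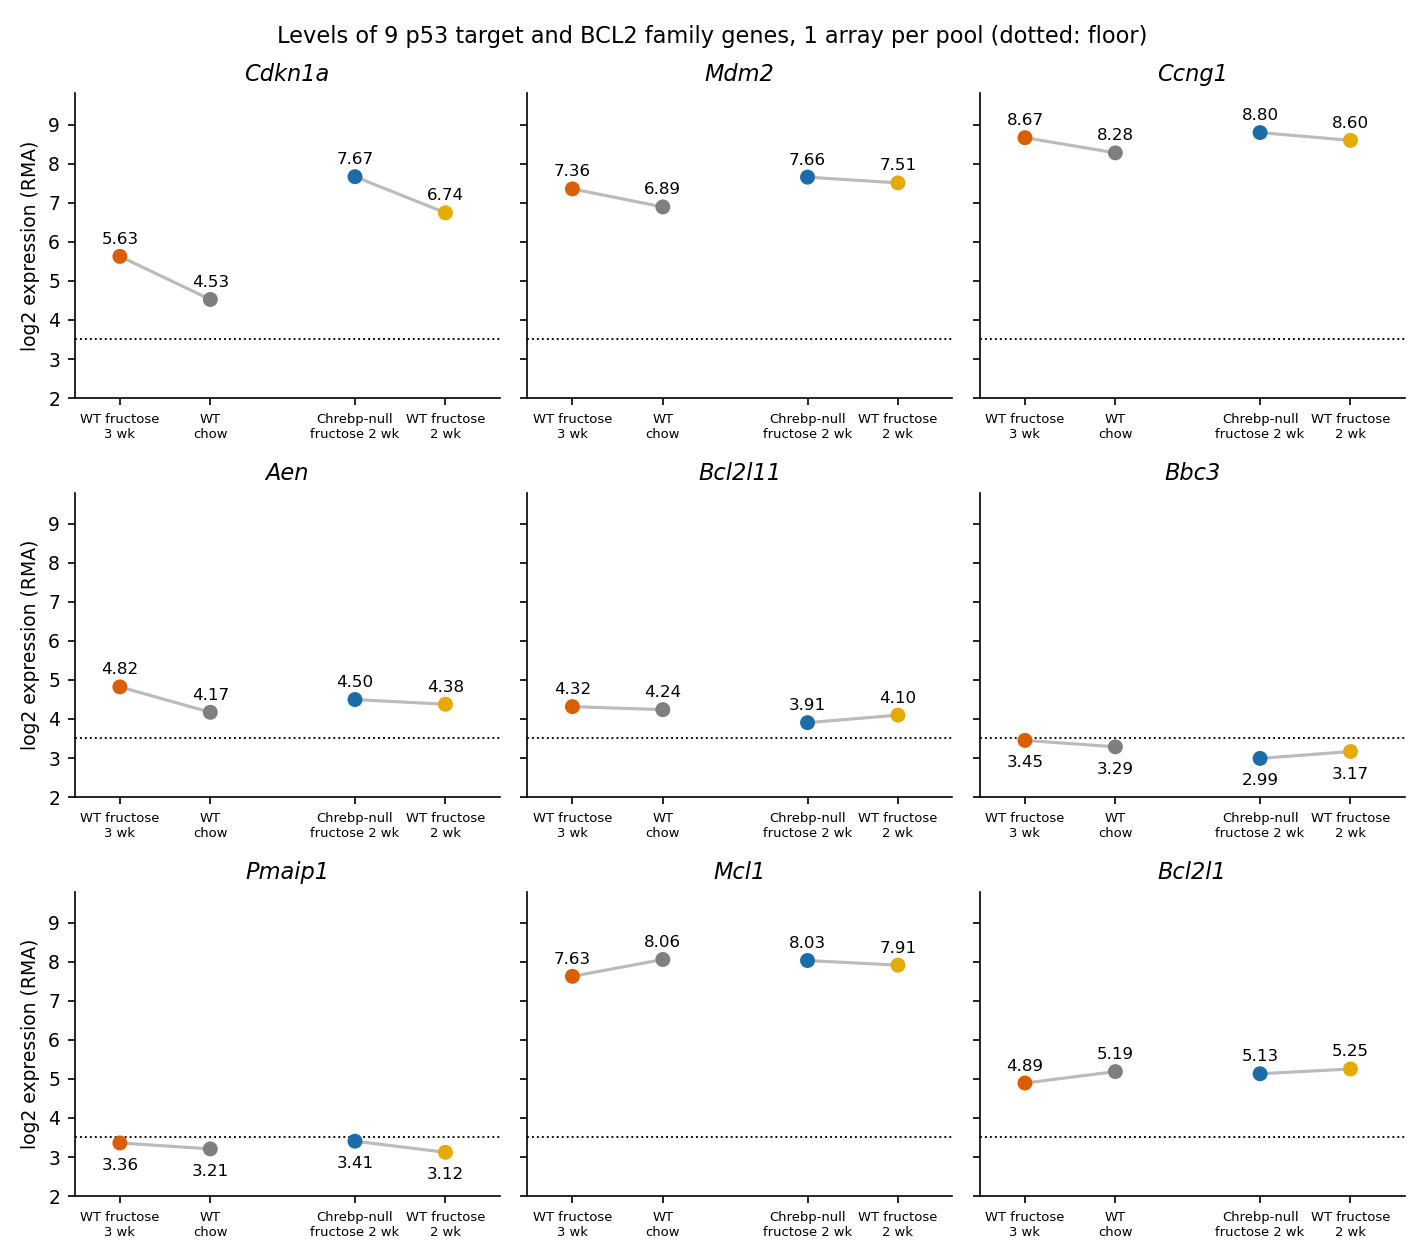
Log2 expression (vertical axis, RMA) of the 9 measured genes in the 4 pools (horizontal axis), 1 point per array, with a line joining the arrays of each design comparison and a dotted line at the floor of 3.52. Cdkn1a spans 4.53 to 7.67, while the other 8 genes span less than 1 log2 unit each, and Bbc3 and Pmaip1 lie below the floor throughout.

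Mdm2, the ubiquitin ligase gene of the p53 feedback loop, followed the same order of pools over a narrower range of 0.76. It read 7.36 in the 3-week WT fructose pool, against 6.89 on chow (probe set 17245248). It read 7.66 in the Chrebp-null pool, against 7.51 in the 2-week WT pool. The chow pool was lowest and the null pool highest, as for Cdkn1a. The differences were 0.46 for 3 weeks of fructose over chow and 0.15 for null over WT, and 0.62 for the 2-week WT pool over chow, each under 2-fold. A range as wide as that of Mdm2 was found in 19.8% of genes at or above the floor.

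Ccng1, which encodes cyclin G1, a p53 target that takes part in control of MDM2, read 8.67 in the 3-week WT fructose pool, against 8.28 on chow (probe set 17261865). It read 8.80 in the Chrebp-null pool, against 8.60 in the 2-week WT pool. The order was chow lowest and null highest, with the WT fructose pools 0.07 apart. The differences were 0.39 for 3 weeks over chow and 0.20 for null over WT. A range as wide as its 0.52 was found in 42.9% of genes at or above the floor.

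Aen, which encodes an apoptosis-enhancing nuclease, differed from these genes in where it was highest. It read 4.82 in the 3-week WT fructose pool, against 4.17 on chow (probe set 17479303). It read 4.50 in the Chrebp-null pool, against 4.38 in the 2-week WT pool. Chow was again the lowest pool, but the 3-week WT pool, not the null pool, was the highest. The differences were 0.65 for 3 weeks over chow, a ratio of 1.57, and 0.12 for null over WT, which turned to -0.04 once the trend of the difference with level was removed.

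Among the BH3-only members, Bcl2l11, which encodes BIM, was the 1 gene above the floor. It read 4.32 in the 3-week WT fructose pool, against 4.24 on chow (probe set 17375961). It read 3.91 in the Chrebp-null pool, against 4.10 in the 2-week WT pool. The null pool was the lowest and the 4 pools spanned 0.41. The differences were 0.08 for 3 weeks of fructose over chow and -0.19 for null over WT.

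Bbc3, the PUMA gene, read 3.45 in the 3-week WT fructose pool, against 3.29 on chow (probe set 17474097). It read 2.99 in the Chrebp-null pool, against 3.17 in the 2-week WT pool. The null pool was lowest, 0.18 below WT at 2 weeks as read. Pmaip1, the NOXA gene, read 3.36 in the 3-week WT fructose pool, against 3.21 on chow (probe set 17351414). It read 3.41 in the Chrebp-null pool, against 3.12 in the 2-week WT pool. All 8 values of Bbc3 and Pmaip1 lay below the floor of 3.52, where differences between arrays are least certain and RMA compresses them, so no fold is given for either gene. Nothing at this signal shows whether their RNA differed between the pools.

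Both survival genes were lowest in the 3-week WT fructose pool. Mcl1 read 7.63 in the 3-week WT fructose pool, against 8.06 on chow (probe set 17400418). It read 8.03 in the Chrebp-null pool, against 7.91 in the 2-week WT pool. The 3-week WT pool was the lowest of the 4, at -0.43 over chow, a ratio of 0.742. The difference for null over WT was 0.12. A second, dimmer Mcl1 probe set, 17407826, below the floor on every array, read 3.10 in the 3-week WT pool against 3.13 on chow, and 2.57 in the null pool against 2.94 in the 2-week WT pool. With both probe sets averaged, the 3-week difference was -0.23 and the null difference -0.13.

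Bcl2l1, which encodes BCL-XL, read 4.89 in the 3-week WT fructose pool, against 5.19 on chow (probe set 17392991). It read 5.13 in the Chrebp-null pool, against 5.25 in the 2-week WT pool. The highest was the 2-week WT pool, 0.07 above chow. The differences were -0.29 for 3 weeks of fructose over chow and -0.12 for null over WT.

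After 3 weeks of fructose over chow, the p53 targets Cdkn1a, Mdm2, Ccng1 and Aen stood between 0.39 and 1.10, Bcl2l11 at 0.08, and the survival genes Mcl1 and Bcl2l1 at -0.43 and -0.29. At 2 weeks over chow, which shares the chow array, the same p53 targets stood between 0.21 and 2.22, Bcl2l11 at -0.14, Mcl1 at -0.15 and Bcl2l1 at 0.07. Of the 7 members assessed, Cdkn1a was the 1 past 2-fold upward and none was past 2-fold downward. Of all 11717 genes assessed, 0.64% (75 genes) passed 2-fold upward and 1.16% (136) downward, 1.8% in all, and with the trend of the difference with level removed these counts were 93 and 105. The median of the 7 members was 0.39, beside -0.05 over all genes assessed. A difference at least as high was read in 0.469% of those genes for Cdkn1a, 2.68% for Aen, 6.46% for Mdm2 and 8.92% for Ccng1, and in 76.5% for Bcl2l1 and 86.6% for Mcl1.

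In the Chrebp-null comparison no member of the 7 assessed was 2-fold higher or lower, where 2.03% of 11631 genes passed 2-fold upward and 1.43% downward, 3.46% in all. Cdkn1a came nearest at 0.92, a difference reached by 2.72% of genes assessed. The other 6 lay between -0.19 and 0.20. The median of the members was 0.12, close to the 0.10 over all genes assessed. With the trend of the difference with level removed, these medians were 0.06 and -0.004, and the split of calls over all genes was 140 higher and 225 lower in place of 236 and 166. Against the 3-week WT pool instead, Cdkn1a was 2-fold higher in the null pool and no other member passed 2-fold, where 3.38% of 11772 genes were past it upward and 1.95% downward, 5.33% in all. At 2 weeks of fructose over chow Cdkn1a was again the 1 member past 2-fold, where 0.783% of 11622 genes were past it upward and 1.41% downward, 2.19% in all.

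**Figure D2:**
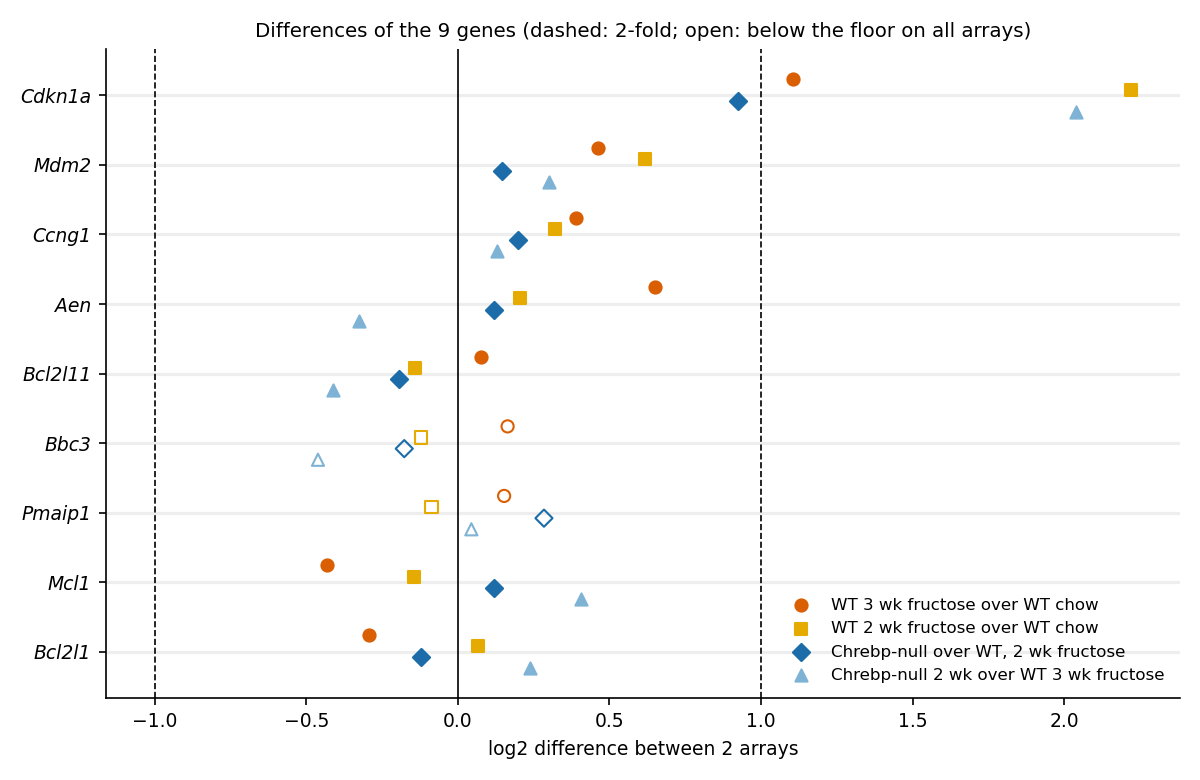
Log2 differences between 2 arrays (horizontal axis) for the 9 genes (rows) in 4 comparisons, with dashed lines at 2-fold and open symbols for genes below the floor on all arrays. Cdkn1a lies right of the others in all 4 comparisons, and it alone passes 2-fold, in 3 of them.

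Sex-linked genes and markers of other liver cells also differed between the pools. Xist, the X inactivation RNA, read 7.04 in the Chrebp-null pool against 8.56 in the 2-week WT pool, and the Y-linked gene Eif2s3y read 7.34 against 6.51. In the 3-week WT pool against chow these genes read 8.77 against 8.84 and 6.00 against 6.12, while Uty, also Y-linked, read 4.67 against 4.03. Uty read 5.39 in the null pool against 4.87 in the 2-week WT pool, and at 2 weeks over chow it stood at 0.84. Markers of Kupffer cells, the liver's macrophages, were all at or above the floor and stood above zero for 3 of 8 genes at 3 weeks over chow (mean level 7.04 against 7.11), for 3 of 8 in null over WT (7.40 against 7.46) and for 8 of 8 at 2 weeks over chow, where their mean level was 7.46 against 7.11. Endothelial markers stood above zero for 6 of 6 at 3 weeks over chow (mean level 7.96 against 7.54), for 6 of 6 at 2 weeks over chow (7.92 against 7.54) and for 1 of 6 in null over WT (7.62 against 7.92). The part of these cell types, and of the mix of sexes, in the differences of Cdkn1a and the other members was not tested.

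Of 47 markers of 8 cell types with a probe set, 37 were assessed at 3 weeks over chow and none passed 2-fold, and 38 were assessed in null over WT, of which Lyve1, an endothelial receptor gene, did, at -1.01. Hepatocyte markers such as Alb and Ttr averaged 11.37 in the 3-week WT pool against 11.45 on chow, and 11.43 in both the null and the 2-week WT pool. Of the neutrophil markers only Csf3r reached the floor on any array. In RNA of whole liver, fewer cells of a type and less RNA per cell cannot be told apart.

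Other known p53 targets were taken from a further list. Of 25 assessed after 3 weeks of fructose over chow, none passed 2-fold upward as Cdkn1a did and 2 passed it downward, around a median of 0.05. With the trend with level removed, 1 of the 25 passed downward. Over all genes assessed, 0.64% passed 2-fold upward and 1.16% downward, around a median of -0.05. Btg2, an antiproliferative gene, stood at -1.11 and Sesn2, a sestrin induced by stress, at -1.05. Plk3, a polo-like kinase, and Trp53inp1, a p53-inducible nuclear protein, stood at -0.83 and -0.61. At 2 weeks over chow these genes stood at -1.04 (Btg2), 0.13 (Sesn2), -0.45 (Plk3) and 0.13 (Trp53inp1). Of 25 assessed there, Ddit4 was the 1 past 2-fold upward, at 1.03 (-0.41 at 3 weeks), and Btg2 the 1 downward. In the null pool over the 3-week WT pool 4 of 27 passed 2-fold upward, Ddit4 (2.06), Plk3 (1.16), Btg2 (1.14) and Ephx1 (1.12), and none downward. Of all genes assessed, 3.38% passed upward and 1.95% downward there, against 0.783% and 1.41% at 2 weeks over chow.

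In the Chrebp-null comparison 1 of 27 other p53 targets assessed was 2-fold higher, Btg2, at 1.07, and none was 2-fold lower, with a median of 0.17 beside 0.10 over all genes. After quantile normalization, or once the trend with level was removed, none of the 27 passed. With the values as deposited, 2.03% of all genes assessed were 2-fold higher and 1.43% lower. Btg2 read 4.92 in the 3-week WT pool against 6.03 on chow, and 6.06 in the null pool against 4.99 in the 2-week WT pool. Both WT fructose pools were therefore about 1 unit below chow and the null pool was at the chow level, an order that Cdkn1a does not share. Zmat3, Polk, Ptp4a3 and Trim35, other p53 targets of the list, did have the order of pools of Cdkn1a, over ranges of 0.31 to 0.68. For Trim35 and Polk that order rests on near ties. Trim35 read 3.82 in both the null and the 2-week WT pool, and 3.51 on chow, below the floor. Polk read 4.91 in the 2-week and 4.90 in the 3-week WT pool. The share of all genes with this order at any range was not counted. Tnfrsf10b, a death receptor gene, stood at 0.83, from 3.80 in the null pool against 2.97 in WT at 2 weeks, of which the WT value is below the floor. Plk3 stood at 0.77 and Ccnd1, the cyclin D1 gene, at 0.71.

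Of 19 other BCL2 family genes listed, 15 had a probe set of 1 symbol and 9 were assessed in each design comparison. The rest of the 15 lay below the floor on every array. None of the 9 passed 2-fold in either design comparison, where 1.8% (3 weeks over chow) and 3.46% (null over WT) of genes assessed did. Of 9 assessed at 3 weeks over chow, 2 were above zero and 7 below, with a median of -0.34. Bcl2l13, an outer mitochondrial membrane protein, stood at -0.55, and the pro-death genes Bok, Bik and Bmf at -0.51, -0.49 and -0.42. In null over WT the median was 0.07. Bak1, which opens the outer mitochondrial membrane as BAX does, read 6.32 in the null pool against 5.78 in the 2-week WT pool, a difference of 0.54. Bcl2 and Bcl2l13 stood at 0.46 each, and Bmf, a BH3-only gene, at -0.54.

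Among the listed genes that were assessed, no regulator of p53 and no gene of the caspase list passed 2-fold in either design comparison. Of all genes assessed, 1.8% did so at 3 weeks over chow and 3.46% in null over WT. None of 16 regulators assessed passed 2-fold at 3 weeks over chow, where the largest was Ep300, an acetyltransferase gene, at 0.52. None of 18 did so in null over WT, where the checkpoint kinase genes Chek2 and Atr stood at 0.81 and 0.80. Of these, Chek2 read 4.02 in the null pool against 3.21 in the 2-week WT pool, which is below the floor. Trp53, the p53 gene, was not analysed here. The caspase list also held inhibitors of apoptosis, partners of cytochrome c, partners of death receptors and Vdac channel genes. None of its 19 genes assessed passed at 3 weeks over chow and none of 20 in null over WT. Casp9, the caspase of the apoptosome, read 4.84 in the 3-week WT pool against 5.56 on chow, a difference of -0.72, and Cycs, cytochrome c, stood at 0.53. In the 2-week WT pool Casp9 read 5.58, 0.03 above chow, and Cycs stood at 0.22 over chow. Birc5, the survivin gene, read 3.53 in the null pool, at the floor, against 3.04 in the 2-week WT pool, below it, a difference of 0.49 in null over WT, where Birc3, another inhibitor of apoptosis, stood at -0.42.

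Genes of the CHOP, ATF4 and FOXO responses, which feed into BH3-only genes, were examined next. At 3 weeks over chow none of the 9 genes passed 2-fold, 8 stood below zero and the median was -0.47, with Foxo3 and Trib3, a pseudokinase gene, at -0.79 and -0.78. Over all genes assessed there, 1.8% passed 2-fold and the median was -0.05. In null over WT 2 of 9 were at least 2-fold higher and the median was 0.49, beside 2.03% and 0.10 over all genes assessed. Ddit3, the CHOP gene, read 5.96 in the null pool against 4.79 in the 2-week WT pool, a difference of 1.17. Atf3, a transcription factor of the same response, read 5.94 in the null pool against 3.75 in the 2-week WT pool, a difference of 2.18. Atf4 stood at 0.68, and Foxo1, Foxo3 and Foxo4 at -0.59, -0.37 and -0.45.

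**Figure D3:**
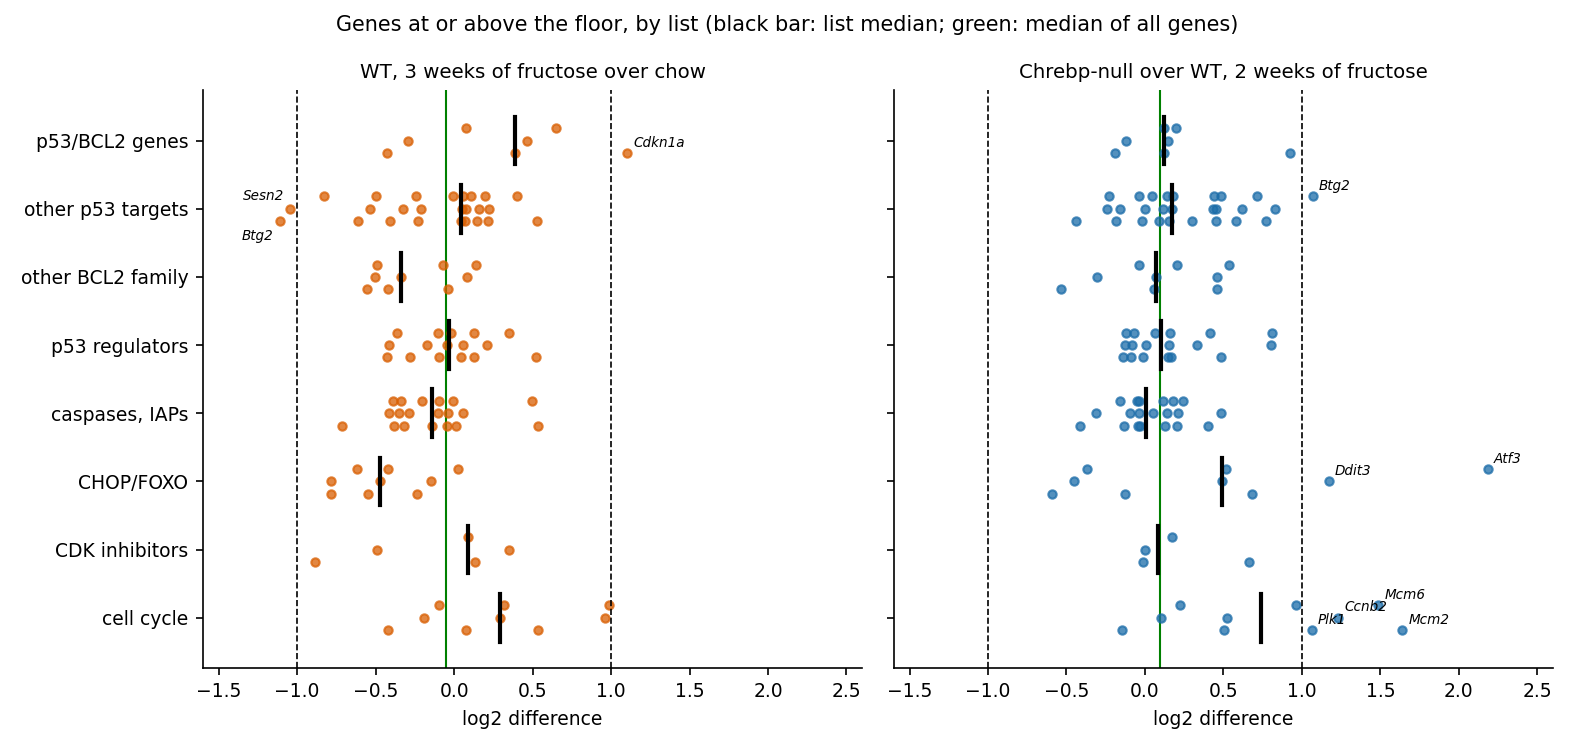
Log2 differences (horizontal axis) of genes at or above the floor in 8 lists (rows) for 3 weeks of fructose over chow (left) and Chrebp-null over WT (right), with a black bar at each list's median, a green line at the median of all genes and dashed lines at 2-fold. Named points passed 2-fold, namely Cdkn1a, Sesn2 and Btg2 on the left, and Btg2, Ddit3, Atf3, Mcm2, Mcm6, Ccnb2 and Plk1 on the right.

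Of 6 other inhibitors of cyclin-dependent kinases listed, 5 were assessed at 3 weeks over chow and 4 in null over WT, and none passed 2-fold. Cdkn1b, the p27 gene, read 5.22 in the 3-week WT pool against 6.11 on chow, a difference of -0.89. Cdkn1c, the p57 gene, read 4.16 in the null pool against 3.50 in the 2-week WT pool, just below the floor, a difference of 0.67. Neither had the order of pools seen for Cdkn1a. Some genes of the cell cycle, which p21 restrains, read higher in the null pool. Of 10 assessed, 4 were at least 2-fold higher, the replication licensing genes Mcm2 and Mcm6 at 1.64 and 1.49, the cyclin gene Ccnb2 at 1.23 and the mitotic kinase gene Plk1 at 1.06, and with the trend with level removed 3 were. Of these, Mcm2 and Plk1 read 5.05 and 3.87 in the null pool, against 3.41 and 2.81 in the 2-week WT pool, both below the floor. Mcm2 and Plk1 were thus assessed in this comparison only through their high null level. Both count among the 4 and in the median of the 10 genes, 0.74, so neither figure is free of that filter. Of all genes assessed, 2.03% were at least 2-fold higher. At 3 weeks over chow none of 9 passed, and Mki67, a marker of dividing cells, and Ccnb2 came nearest at 0.99 and 0.96. Quantile normalization brought 1 of the 9 past 2-fold and removal of the trend with level 2.

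The genes with patterns most like those of Cdkn1a, Mdm2 and Aen, the members with the widest ranges, were found by the distance between log2 levels centred on each gene's mean over the 4 arrays, among 12193 other genes. For Cdkn1a the nearest were Cd63, a tetraspanin gene, at 0.69, H2-Q1 at 0.71, 2010003K11Rik at 0.76 and Dhrs9 at 0.87, where the median distance was 2.35. Cd63 read 4.73 in the 3-week WT pool against 4.53 on chow, and 7.29 in the null pool against 6.03 in the 2-week WT pool. It shared the high null level and lacked most of the 3-week difference. Set against its median distance, the nearest gene to Cdkn1a was further off than those to Mdm2 and Aen.

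For Mdm2 the nearest were Ifit3, an interferon-induced gene, at 0.06, and Dock6, Zkscan3 and Zfp692 at 0.10 each, with a median distance of 0.66. For Aen they were 2310010J17Rik and Phf10 at 0.04, and 9930021J03Rik and Lpgat1 at 0.05, with a median of 0.62. None of these 12 genes was on the lists of p53 targets used here. With 4 arrays and ranges under 1 unit, many genes lie near Mdm2 and Aen, so these names describe the arrays only.

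**Figure D4:**
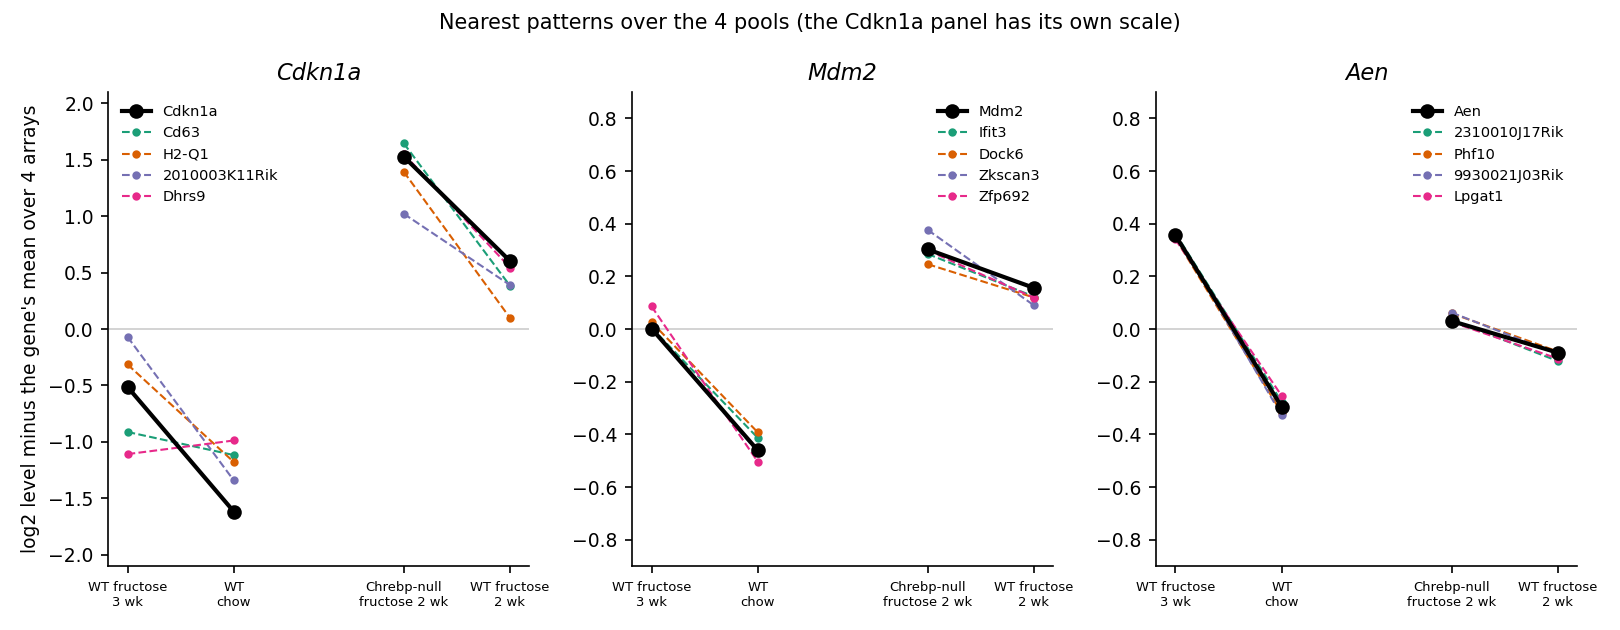
Log2 level minus the gene's mean over 4 arrays (vertical axis, with a wider scale for Cdkn1a) in the 4 pools (horizontal axis) for Cdkn1a, Mdm2 and Aen (black) and the 4 nearest genes of each (dashed, coloured). The neighbours of Mdm2 and Aen lie almost on the member's line, while those of Cdkn1a depart from it, Dhrs9 most at 3 weeks and on chow.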

How the data were processed

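Liver RNA of 4 pools was measured, 1 Affymetrix array each. The authors deposited log2 expression values for 41345 probe sets, made with affy and RMA per the submitters' processing notes. Tool versions and whether 1 RMA run covered the 4 arrays are not known here. RMA narrows differences of dim genes most. Precision is limited by the number of arrays.

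The values were used as deposited. The platform annotation gives 1 symbol for 23521 probe sets, several for 1814 and none for 16010, and only the first entered, leaving 22180 genes, of which 1082 had more than 1 probe set. Groups came from the labels. With 1 array per group there was no test. Differences, the floor at the 50 percentile and the 2-fold count were computed over all genes with Python 3.11.15, numpy 2.4.6 and pandas 2.3.3, tested on simulated data. Figures used matplotlib 3.10.9, and the lowess trend (fraction 0.3) statsmodels 0.14.6.

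The rule for named genes took every member, Mlxipl, up to 4 genes of each list with the largest absolute difference per design comparison, and the 4 nearest patterns of 3 members. Not every gene it takes is printed, and a few others are given where the text turns on them. Promoter sequences are RefSeq's for GRCm38.p6, and 9 of the 10 members had a window that was searched. Members, lists and motifs were chosen with earlier results of these data known. Alternatives tried were a floor at the 75 percentile or none, dim levels raised to the floor, centred arrays, quantile normalization, removal of the trend with level, the mean of all probe sets, the other or both WT fructose arrays, and thresholds of 1.5-fold and 3-fold.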

Additional observations from a re-analysis of the deposited data

Results flagged for a closer look

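Bbc3, Bcl2l11, Pmaip1 and Bcl2l1 stood out because their differences from chow had opposite signs at 3 and 2 weeks of fructose in WT livers. Bbc3 stood at 0.16 at 3 weeks and -0.12 at 2 weeks, Bcl2l11 at 0.08 and -0.14, and Pmaip1 at 0.15 and -0.09. Bcl2l1 stood at -0.29 at 3 weeks and 0.07 at 2 weeks. Both differences use the same chow array, all are under 2-fold, Bbc3 and Pmaip1 lay below the floor, and the change of sign was not tested. Of all 22180 genes, 36.3% had opposite signs in the same pair of differences, and 4 of the 9 members did.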

How the results depend on the processing

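Of the members, 1 passed 2-fold at 3 weeks of fructose over chow, and that count was 0 with the floor at the 75 percentile, where Cdkn1a was no longer assessed, 2 at 1.5-fold, with Aen added, and 0 at 3-fold. Under the other 8 alternatives Cdkn1a was still the 1 member past 2-fold, and on the same arrays its difference stayed between 1.06 and 1.19. In Chrebp-null over WT the count of 0 became 1, Cdkn1a, with the 3-week WT array in place of the 2-week one (2.04), with the mean of both WT fructose arrays (1.48) and at 1.5-fold. On the same arrays Cdkn1a stayed between 0.85 and 0.93, under 2-fold. The median member difference was above zero under all 9 alternatives run for it. At 3 weeks over chow it was 0.39 as reported, 0.16 with no floor, where Bbc3 and Pmaip1 entered, 0.21 with the 2-week WT array, and at most 0.43. In null over WT it was 0.12 as reported, 0.06 with the trend removed and 0.24 against the 3-week WT array. The largest shift of a member under another scaling was 0.16. Without replicates, leaving out a sample was not possible. No paired analysis was possible because each group has 1 array. Over all genes, 211 past 2-fold at 3 weeks over chow (75 higher and 136 lower) became 38 and 77 with the mean of both WT arrays, 418 and 826 at 1.5-fold and 14 and 15 at 3-fold. The 236 higher and 166 lower in null over WT became 87 and 110 under the stricter floor, 398 and 230 against the 3-week WT array, 1065 and 441 at 1.5-fold and 46 and 54 at 3-fold. Signal near background limits Bbc3 and Pmaip1.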
